A study of Mus musculus with 6 samples.

Results

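The Hox genes encode homeodomain transcription factors and lie in 4 clusters, Hoxa, Hoxb, Hoxc and Hoxd. They were described here by taking every row of the count table with a Hoxa, Hoxb, Hoxc or Hoxd symbol followed by a number, which gave 39 of 20295 genes: 11 of Hoxa, 10 of Hoxb, 9 of Hoxc and 9 of Hoxd. RNA was sequenced from adipocytes differentiated in culture from stromal-vascular cells, the mixed cells left when collagenase-digested fat is cleared of mature adipocytes. The 3 groups were BAT (brown fat, combined from interscapular, cervical and axillary depots), iWAT (inguinal white fat) and eWAT (epididymal white fat), with 2 libraries each. All cells came from male NMRI mice of 4 to 5 weeks with no transgene or deletion named. All cultures were fed medium containing 1 µM rosiglitazone, 30 nM insulin and newborn calf serum (10%); rosiglitazone is an activator of the adipogenic regulator Pparg. Per the labels, cells were taken at day 8 (the count table tags them as day 7), and only cultures with over 50% differentiation were used.

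Within a cluster the genes are numbered 1 to 13 by paralogue group, and a number shared between clusters marks descent from a common ancestral gene. Along the body axis of the embryo, low-numbered (anterior) genes are switched on early and near the head, and high-numbered (posterior) genes late and near the tail. HOX proteins bind DNA with PBX and MEIS partners, Polycomb and trithorax complexes maintain their on and off states, and fibroblasts and preadipocytes of the adult keep part of their positional pattern.

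Library totals ran from 2889038 to 4807449 counts, of which 558 to 1006 counts per library fell on Hox genes. Levels are given as CPM, read counts scaled to a common library total with TMM factors. An undetected gene could still have had up to 3 counts, which is 0.634 to 1.15 CPM per library. Adipocyte markers summed to between 20330 and 38030 CPM in every library. Brown adipocyte markers (Ucp1 and Cidea) summed to 5506 and 10220 CPM in BAT, 1216 and 1019 CPM in iWAT, and 61.7 and 67.7 CPM in eWAT. Nothing states that the 2 libraries of a depot stem from different animals or cultures, so the p-values cover the spread between the libraries at hand, possibly a technical one.

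The 3 depots carried similar totals of Hox RNA but took it from different paralogue groups. Summed over all 39 genes, Hox RNA averaged 200.6 ± 18.0 CPM in BAT, 233.1 ± 28.0 CPM in iWAT and 224.9 ± 9.12 CPM in eWAT (SD, n = 2 each). Groups 9 to 13 held 4.95% and 4.48% of Hox reads in BAT, 49.0% and 49.8% in iWAT, and 7.15% and 9.24% in eWAT. Groups 1 to 5 held 51.1% and 55.6% in BAT, 15.9% and 14.0% in iWAT, and 35.5% and 38.1% in eWAT. The iWAT libraries thus stood apart at both ends of the axis, with no overlap with either other depot. As summed levels, groups 9 to 13 averaged 9.43 ± 0.184 CPM in BAT, 115.3 ± 15.1 CPM in iWAT and 18.4 ± 2.58 CPM in eWAT. These sums are descriptions of each library, with no test.

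**Figure D1:**
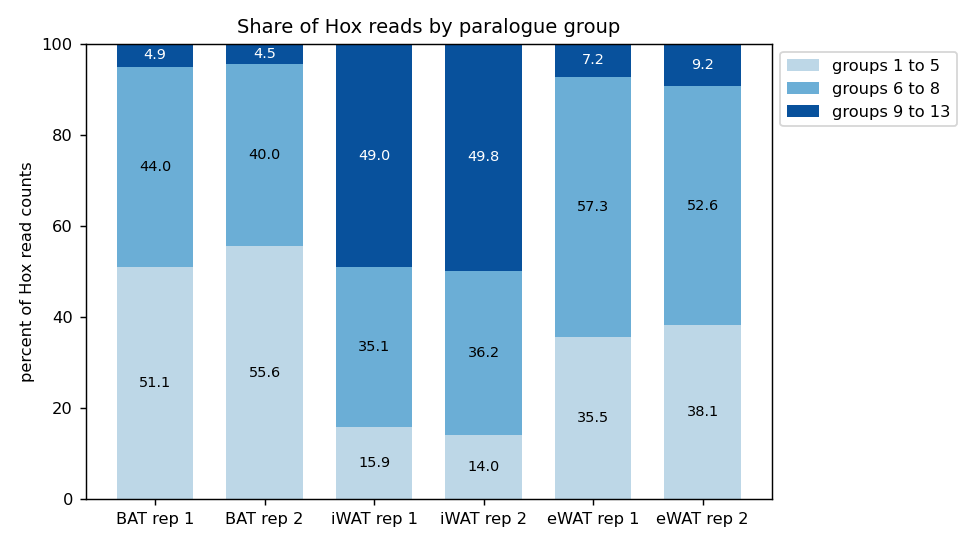
Percent of each library's Hox read counts (y axis) from paralogue groups 1 to 5, 6 to 8 and 9 to 13, stacked, for the 2 BAT, 2 iWAT and 2 eWAT libraries (x axis). Groups 9 to 13 make up 49.0% and 49.8% in iWAT, against at most 4.95% in BAT and 9.24% in eWAT.

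The same shift appeared in the mean paralogue number weighted by reads, which was 5.84 and 5.76 in BAT, 7.89 and 8.03 in iWAT, and 6.38 and 6.32 in eWAT. By cluster it was concentrated in Hoxa, where the mean was 4.68 and 4.80 in BAT, 8.65 and 8.72 in iWAT, and 5.10 and 5.46 in eWAT. In Hoxc it was 6.72 and 6.66 in BAT, 8.26 and 8.38 in iWAT, and 7.48 and 7.48 in eWAT. Hoxb and Hoxd showed little of it: Hoxd lay between 7.12 and 7.61 in all 6 libraries, and Hoxb between 4.16 and 4.98. Without Hoxc8, the Hox gene with the most counts, the overall mean was 5.65 ± 0.0387 in BAT, 7.95 ± 0.116 in iWAT and 5.63 ± 0.161 in eWAT, so the order of BAT and eWAT rested on that gene.

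Detection, taken as at least 5 counts in both libraries of a depot, gave 20 genes in BAT, 19 in iWAT and 19 in eWAT. In Hoxa, the highest-numbered detected gene was Hoxa9 in BAT, Hoxa10 in iWAT and Hoxa9 in eWAT. In Hoxc it was Hoxc9 in BAT (5 and 5 counts, at the cut), Hoxc10 in iWAT and Hoxc9 in eWAT. Hoxb and Hoxd did not show this order. In Hoxb it was Hoxb8 in BAT and iWAT and Hoxb7 in eWAT. Hoxb8 had 6 and 6 counts in iWAT and 8 and 4 in eWAT, so this difference rested on eWAT replicate 2, just under the cut. In Hoxd, BAT reached furthest, with Hoxd9 (8 and 8 counts), against Hoxd8 in iWAT and eWAT. The low-count filter kept 20 members: 7 of Hoxa, 5 of Hoxb, 6 of Hoxc and 2 of Hoxd. Hoxc10 passed it only through iWAT and Hoxc4 only through eWAT. Each was thus tested only because of its counts in that depot, which tilts its differences toward that depot. Hoxa10 reached the cut in 2 iWAT libraries, 1 eWAT library and 0 BAT libraries, so it too needed iWAT to be tested. The p-values of Hoxa10 and Hoxc10 below carry this limit. The 19 members left out had 0 to 52 counts over all 6 libraries and never exceeded 3.38 CPM. Of these 11 had fewer than 10 counts, and those with more included Hoxa6, Hoxb5, Hoxb8, Hoxc13, Hoxd3, Hoxd9 and Hoxd10. Hoxa13 had no count in any library.

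For any difference between depots, the edgeR quasi-likelihood test with Benjamini-Hochberg adjustment over 11732 genes passed 6 of the 20 tested Hox genes: Hoxa5, Hoxa9, Hoxa10, Hoxc8, Hoxc9 and Hoxc10. Of all genes tested, 3.03% passed. Adjusted p-values of the 6 ran from 0.018 for Hoxa9 and Hoxa5 to 0.0366 for Hoxc9. None of the 7 tested Hoxb and Hoxd genes passed. The count fell to 1 (Hoxa9) without iWAT replicate 1 and to 0 without iWAT replicate 2 or without BAT replicate 2. Over all genes the count fell likewise, to 19, 0 and 2 in these fits, against 355 with all libraries. With the replicate number as a block, 9 passed, adding Hoxc6, Hoxd4 and Hoxd8, and so did 20.5% of all genes.

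**Figure D2:**
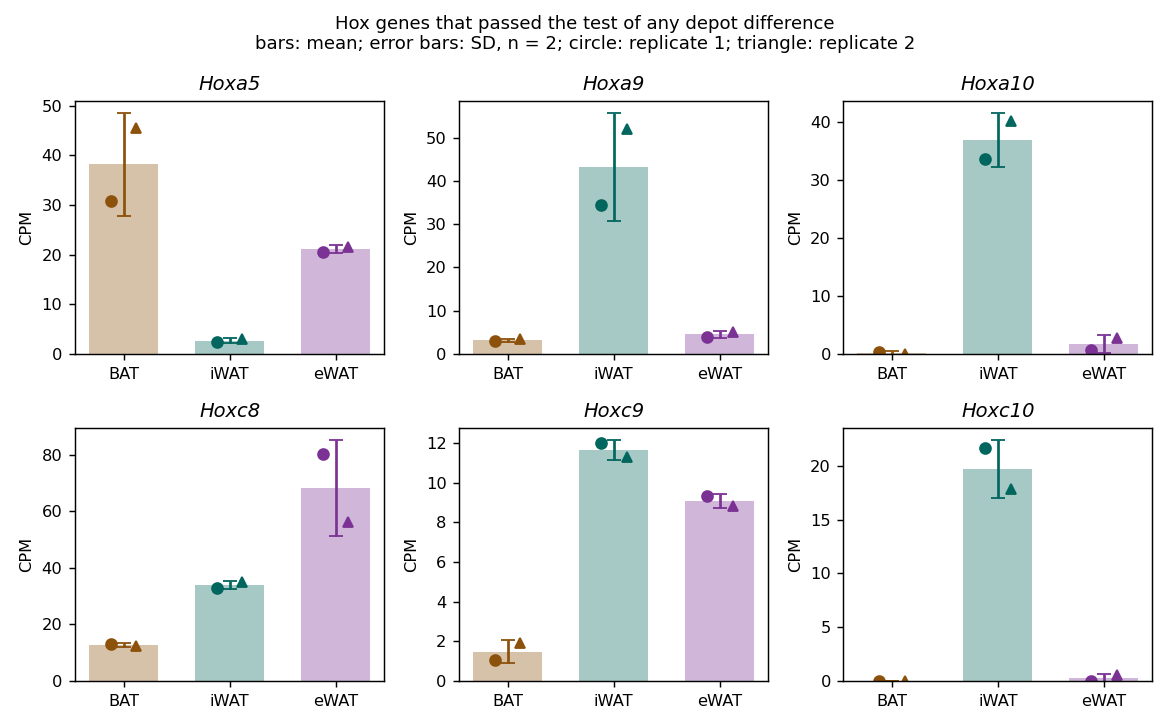
CPM (y axes, from 0) of the 6 Hox genes with an adjusted p below 0.05 for any depot difference, by depot; bars are means, error bars SD (n = 2) and points the libraries. Hoxa9, Hoxa10 and Hoxc10 are highest in iWAT, Hoxa5 is lowest there, Hoxc8 is low in BAT, intermediate in iWAT and high in eWAT, and Hoxc9 is low in BAT.

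Within Hoxa, which spans chr6:52105365-52210874 in mm9, the break between the depots lay between Hoxa7 and Hoxa9. Hoxa5, known in mice for patterning the lower neck and upper thorax and for lung development, had 30.9 and 45.5 CPM in BAT, 2.41 and 3.02 CPM in iWAT, and 20.5 and 21.6 CPM in eWAT. It was the leading Hoxa gene of BAT and eWAT, with 59.6% and 59.2% of the cluster's reads in BAT, 2.97% and 2.78% in iWAT, and 41.5% and 42.5% in eWAT, and no library of iWAT overlapped another depot. Hoxa5 was higher in BAT than in iWAT by 3.79 ± 0.32 on the log2 scale (SE; edgeR adjusted p = 0.0154). The BAT minus eWAT difference of 0.85 ± 0.27 did not pass (adjusted p = 0.113; 0.0296 with the replicate block), although both BAT libraries lay above both eWAT libraries.

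Hoxa9, a regulator of blood progenitors and of posterior axial identity in mice, ran the other way. It had 2.96 and 3.44 CPM in BAT, 34.4 and 52.0 CPM in iWAT, and 3.96 and 5.12 CPM in eWAT. BAT was lower than iWAT by a log2 difference of -3.76 ± 0.35 (adjusted p = 0.0162), while BAT and eWAT differed by -0.51 ± 0.38 (adjusted p = 0.456). Hoxa10, which acts in lumbar patterning and in the reproductive tract of mice, had 0.423 and 0 CPM in BAT, 33.7 and 40.2 CPM in iWAT, and 0.699 and 2.84 CPM in eWAT. With 2 counts in BAT and 300 in iWAT, the ratio was 135.5-fold lower in BAT (95% binomial interval 37.2 to 1124, counting error only; edgeR adjusted p = 0.0235). Against eWAT, with 13 counts, Hoxa10 was 6.12-fold lower in BAT (interval 1.39 to 55.8), which did not pass the test across libraries (adjusted p = 0.189). That ratio rested on single libraries: it was 10.4-fold without eWAT replicate 1 and 3.94-fold without BAT replicate 2, and could not be given without eWAT replicate 2, where both depots had 3 or fewer counts. Without BAT replicate 1, BAT had no count, and Hoxa10 was at least 1.45-fold lower than in eWAT and at least 32.1-fold lower than in iWAT; without BAT replicate 2 it was 87.2-fold lower than in iWAT.

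Groups 9 to 13 of Hoxa thus made up 6.94% and 4.48% of the cluster's reads in BAT, 84.0% and 85.2% in iWAT, and 10.4% and 16.2% in eWAT. Of the anterior Hoxa genes, Hoxa2, which patterns the hindbrain and the second pharyngeal arch in mice, had 4.44 and 7.26 CPM in BAT, 1.68 and 0.754 CPM in iWAT, and 4.43 and 3.70 CPM in eWAT. Its BAT minus iWAT difference of 2.20 ± 0.56 did not pass (adjusted p = 0.145). Hoxa3 and Hoxa4 also had both BAT libraries above both iWAT libraries, and neither passed (adjusted p = 0.356 and 0.34). Hoxa7 overlapped between BAT and iWAT. The Hoxa3 row of the table spans Hoxa4, Hoxa5 and Hoxa6 on the same strand, and how reads in shared bases were assigned is not given in the sources used here.

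Because Hoxa5 moved opposite to Hoxa9 and Hoxa10 within a single cluster, the 250 bases before the start of each are shown, from RefSeq entries on build GRCm38.p6, all on the minus strand of chromosome 6. Their positions are chr6:52204588-52204837 for Hoxa5, chr6:52227371-52227620 for Hoxa9, chr6:52240855-52241104 for the first Hoxa10 entry and chr6:52234940-52235189 for the other. Capitals mark, on either strand, TATAAA as the core of a TATA box, CCAAT as a CCAAT box and GGCGGG as a GC box of the SP factors.
Hoxa5: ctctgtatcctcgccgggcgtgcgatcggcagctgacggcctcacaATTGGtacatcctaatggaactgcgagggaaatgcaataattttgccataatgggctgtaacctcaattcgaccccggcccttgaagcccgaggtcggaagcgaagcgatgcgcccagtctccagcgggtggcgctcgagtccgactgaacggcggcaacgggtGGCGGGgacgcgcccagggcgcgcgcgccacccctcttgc
Hoxa9: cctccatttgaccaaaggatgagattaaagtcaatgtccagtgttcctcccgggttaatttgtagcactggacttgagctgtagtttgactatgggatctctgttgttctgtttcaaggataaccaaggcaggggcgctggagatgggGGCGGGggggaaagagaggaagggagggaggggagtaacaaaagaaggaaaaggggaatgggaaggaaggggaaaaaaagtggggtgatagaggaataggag
Hoxa10 first entry: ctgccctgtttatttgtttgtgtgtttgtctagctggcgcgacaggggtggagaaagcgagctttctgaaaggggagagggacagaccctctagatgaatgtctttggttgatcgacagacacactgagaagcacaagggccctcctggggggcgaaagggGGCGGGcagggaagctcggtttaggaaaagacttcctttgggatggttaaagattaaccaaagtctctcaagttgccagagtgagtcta
Hoxa10 other entry: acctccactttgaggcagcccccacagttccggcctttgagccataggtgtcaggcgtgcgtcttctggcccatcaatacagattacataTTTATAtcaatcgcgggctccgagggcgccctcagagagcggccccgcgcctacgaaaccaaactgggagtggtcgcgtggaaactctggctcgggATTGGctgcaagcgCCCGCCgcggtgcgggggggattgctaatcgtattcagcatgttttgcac
Every one of these windows holds GGCGGG, as do 32.7% of 32536 mouse promoter windows of the same length and 13 of 24 Hox windows. CCAAT stands in Hoxa5 and in the other Hoxa10 entry (33.8% of all windows and 14 of 24 Hox windows). TATAAA stands in the other Hoxa10 entry (12.3% of all windows and 4 of 24 Hox windows). TGATNNAT, a PBX-HOX type motif searched on both strands, has no match in these windows (7.66% of all windows and 4 of 24 Hox windows hold it). Hoxa5 has 28 CG pairs, Hoxa9 3, and the Hoxa10 entries 7 and 20, against a median of 6 over all windows and 12.5 over the 24 windows of the 22 matched Hox genes. These matches describe letters, not binding, and the counts do not say which start was used.

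In Hoxc (chr15:102751561-102867283, mm9), BAT was low and the white depots differed in how far along the cluster reads extended. Hoxc8, which patterns the thorax in mice, had 13.1 and 12.2 CPM in BAT, 33.0 and 34.9 CPM in iWAT, and 80.4 and 56.3 CPM in eWAT. The 3 depots did not overlap. BAT was lower than eWAT by a log2 difference of -2.43 ± 0.24 (edgeR adjusted p = 0.0147), and this call held in 5 of 6 fits that each left out a library, failing without BAT replicate 2. Against iWAT the difference in BAT was -1.42 ± 0.24 and did not pass (adjusted p = 0.0646; 0.011 with the replicate block). Between iWAT and eWAT it was -1.01 ± 0.22 (adjusted p = 0.179; 0.0288 with the replicate block).

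Hoxc9, known in mice for setting the thoracic motor columns of the spinal cord, was lower in BAT than in both white depots. It had 1.06 and 1.91 CPM in BAT, 12.0 and 11.3 CPM in iWAT, and 9.32 and 8.82 CPM in eWAT. The log2 differences of BAT were -2.67 ± 0.41 against eWAT (adjusted p = 0.0284) and -3.03 ± 0.41 against iWAT (adjusted p = 0.0348), and iWAT differed from eWAT by 0.36 ± 0.33 (adjusted p = 0.936). Neither call held in any fit that left out 1 library, where adjusted p-values over all alternatives reached 0.117 for the eWAT comparison and 0.2 for the iWAT comparison.

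Hoxc10, a lumbar patterning gene that has also been studied in mice as a suppressor of browning in white fat, was found almost entirely in iWAT. It had 0 CPM in both BAT libraries, 21.7 and 17.9 CPM in iWAT, and 0 and 0.569 CPM in eWAT. With 161 counts in iWAT and none in BAT, Hoxc10 was at least 48.5-fold lower in BAT, taking 3 counts over the depot as the floor (adjusted p = 0.0365). Against the 2 counts of eWAT it was 77.3-fold higher in iWAT (interval 21.1 to 643.5), which did not pass (edgeR adjusted p = 0.108, and 0.0064 with the replicate block). This value was 34.8-fold without eWAT replicate 1 and at least 28.3-fold without eWAT replicate 2, which held both counts. The bound against BAT was 17.2-fold without BAT replicate 1 and 31.2-fold without BAT replicate 2. Its neighbour Hoxc11 was too low to test and had 7 counts in iWAT and none in BAT or eWAT, which makes iWAT at least 2.11-fold higher than BAT and at least 2.24-fold higher than eWAT.

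Hoxc6, a forelimb and upper thoracic level gene, had 3.17 and 3.82 CPM in BAT, 8.90 and 5.28 CPM in iWAT, and 12.6 and 10.2 CPM in eWAT. Its libraries did not overlap between depots. The BAT minus eWAT difference of -1.72 ± 0.40 lay just outside the threshold (edgeR adjusted p = 0.0594; DESeq2 0.0452; 0.0151 with the replicate block). Hoxc5, an anterior neighbour, had 9.30 and 8.79 CPM in BAT, 4.81 and 2.26 CPM in iWAT, and 10.7 and 7.39 CPM in eWAT, with iWAT below both other depots and no pairwise test passed. Summed over the 9 Hoxc genes, levels were 29.6 ± 0.251 CPM in BAT, 79.9 ± 6.37 CPM in iWAT and 102.7 ± 22.1 CPM in eWAT.

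Hoxb (chr11:96055674-96229567, mm9) summed to 43.1 ± 3.62 CPM in BAT, 25.7 ± 1.11 CPM in iWAT and 43.8 ± 1.26 CPM in eWAT, with iWAT below the others and no member above 12.8 CPM in a library. Hoxb4, known for expanding blood stem cells and the member with the highest mean CPM of the cluster, had 9.72 and 11.8 CPM in BAT, 4.33 and 6.29 CPM in iWAT, and 8.15 and 12.8 CPM in eWAT. BAT and eWAT overlapped, and iWAT lay below both. Its log2 difference of BAT was 0.04 ± 0.37 against eWAT (edgeR adjusted p = 0.961) and 1.01 ± 0.39 against iWAT (adjusted p = 0.271). That of iWAT against eWAT was -0.97 ± 0.38 (adjusted p = 0.497). Hoxb6, a gene of the trunk axis, had 4.86 and 5.35 CPM in BAT, 1.68 and 1.01 CPM in iWAT, and 4.43 and 4.27 CPM in eWAT. Its BAT minus iWAT difference of 1.89 ± 0.46 passed only with the replicate block (edgeR adjusted p = 0.0495 with it and 0.137 without it). Hoxb5, too low to test, had 9 counts in BAT, none in iWAT and 7 in eWAT. Hoxb9, also untested, was below 1 CPM in every library, and the posterior share of Hoxb never exceeded 3.64%.

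In Hoxd (chr2:74506366-74603199, mm9), Hoxd8 alone gave 72.8% to 86.5% of the reads of each library. Hoxd8, a gene of the lower thoracic and lumbar axis in mice, had 49.5 and 50.1 CPM in BAT, 18.5 and 35.9 CPM in iWAT, and 13.7 and 28.2 CPM in eWAT. Both BAT libraries lay above the other 4, while iWAT and eWAT overlapped, each with replicate 2 above replicate 1. The BAT minus eWAT difference of 1.26 ± 0.43 did not pass (edgeR adjusted p = 0.133; 0.0121 with the replicate block), nor did BAT minus iWAT at 0.87 ± 0.42 (adjusted p = 0.361) or iWAT minus eWAT at 0.39 ± 0.43 (adjusted p = 0.971). Hoxd4, of the hindbrain and neck level, had 6.76 and 11.1 CPM in BAT, 2.17 and 4.27 CPM in iWAT, and 3.49 and 5.69 CPM in eWAT. It passed against iWAT only with the replicate block (edgeR adjusted p = 0.0429). Without the block, BAT minus iWAT was 1.44 ± 0.52 (adjusted p = 0.248). The Hoxd3 row spans Hoxd4 on the same strand. Unlike Hoxa and Hoxc, Hoxd had no posterior gene with at least 5 counts in both iWAT libraries, and its posterior share was at most 6.06% in any library; this contrast between clusters was not tested.

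Per kilobase of counted length, which lets genes be compared, Hoxd8 led in both BAT libraries (29.5 and 29.9 CPM per kb), followed by Hoxa5 (16.4 and 24.2 CPM per kb). In iWAT the order differed between libraries. Hoxa10 led in replicate 1 (15.6 CPM per kb), followed by Hoxc8 (13.9), Hoxc10 (11.32), Hoxa9 (11.26) and Hoxd8 (11.04). Hoxd8 led in replicate 2 (21.4 CPM per kb, against 18.6 for Hoxa10). In eWAT, Hoxc8 led in both libraries (33.9 and 23.8 CPM per kb). Next in eWAT replicate 1 was Hoxa5 (10.9 CPM per kb, against 8.63 for Hoxb7 and 8.19 for Hoxd8). In eWAT replicate 2 the next was Hoxd8 (16.8 CPM per kb, against 11.5 for Hoxa5).

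For BAT minus iWAT, edgeR called 1 Hox gene higher (Hoxa5; 0.145% of all tested genes were called higher) and 4 lower (Hoxa9, Hoxa10, Hoxc9 and Hoxc10; 0.895% of all tested genes were called lower). Both BAT libraries lay above both iWAT libraries for 11 of the 20 genes (23.9% of all tested genes) and below them for 6 (24.1%). Of the 10 tested genes of groups 1 to 5, 9 had BAT above iWAT without overlap, and the 4 tested genes of groups 9 to 13 all had BAT below. Only 4 of the 16 genes of groups 9 to 13 were tested. Of these, Hoxa10 and Hoxc10 would not have been tested without their iWAT counts, which partly fixed that direction. The median difference of the 20 genes was 0.76 on the log2 scale, against -0.02 over all genes tested, and the same with Hoxa10 at its ratio and Hoxc10 at its bound. No Hox gene was called without BAT replicate 2, without iWAT replicate 1 or without iWAT replicate 2, and only Hoxa5 without BAT replicate 1. These fits called 0, 4, 0 and 17 genes in all, against 122 with all libraries. With the replicate block 8 were called, adding Hoxb6 and Hoxd4 as higher and Hoxc8 as lower in BAT, where 4.55% of all genes were called higher and 5.89% lower.

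For BAT minus eWAT, no Hox gene was called higher by edgeR (2.71% of all tested genes were) and 2 were called lower, Hoxc8 and Hoxc9 (3.75% of all tested genes). At an unadjusted p below 0.05 there were 6 Hox genes, against 25.9% of all genes tested, and DESeq2 called 3, all lower, adding Hoxc6 (6.57% of all genes were called lower by DESeq2). Libraries did not overlap for 6 genes higher in BAT (26.8% of all tested genes) and 8 lower (28.5%), shares of 30.0% and 40.0% of the 20 that lie near that background. The median of the 20 genes was -0.22 (-0.14 over 19 with Hoxa10 at its ratio and Hoxc10 left out), against -0.03 over all genes. The block called 5 genes, adding Hoxa5 and Hoxd8 as higher and Hoxc6 as lower in BAT, where 10.9% of all genes were called higher and 12.8% lower. Leaving out any library left Hoxc8 alone, or nothing where BAT replicate 2 was left out. These fits called 17 to 829 genes in all, against 758 with all libraries.

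For iWAT minus eWAT, edgeR called 0 Hox genes and 0.0% of all tested genes. At an unadjusted p below 0.05 there were 10 Hox genes, against 9.34% of all genes tested, and limma voom called 0 Hox genes and 0.00852% of all genes. DESeq2 called 4: Hoxa9, Hoxa10 and Hoxc10 higher in iWAT and Hoxa5 lower, where it called 0.963% of all genes higher and 1.6% lower. The edgeR differences were 3.25 ± 0.33 for Hoxa9 (adjusted p = 0.0759), 4.41 ± 0.60 for Hoxa10 (adjusted p = 0.0906) and -2.94 ± 0.32 for Hoxa5 (adjusted p = 0.0759). With the replicate block, the edgeR adjusted p-values were 0.0018 for Hoxa9, 0.0032 for Hoxa10 and 0.0031 for Hoxa5. From pooled counts, Hoxa10 was 12.97-fold higher in iWAT without eWAT replicate 1 and 52.8-fold higher without eWAT replicate 2. The block called these 4 and Hoxc8, which was lower in iWAT, where 1.66% of all genes were called higher and 3.14% lower. Libraries did not overlap for 4 genes higher in iWAT (19.2% of all tested genes) and 13 lower (18.8%). All 10 tested genes of groups 1 to 5 had negative differences, between -2.94 for Hoxa5 and -0.50 for Hoxd4. All 4 of groups 9 to 13 were positive, though Hoxa10 and Hoxc10 would not have been tested without their iWAT counts. The median over the 20 genes was -0.90, against 0.01 over all genes.

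**Figure D3:**
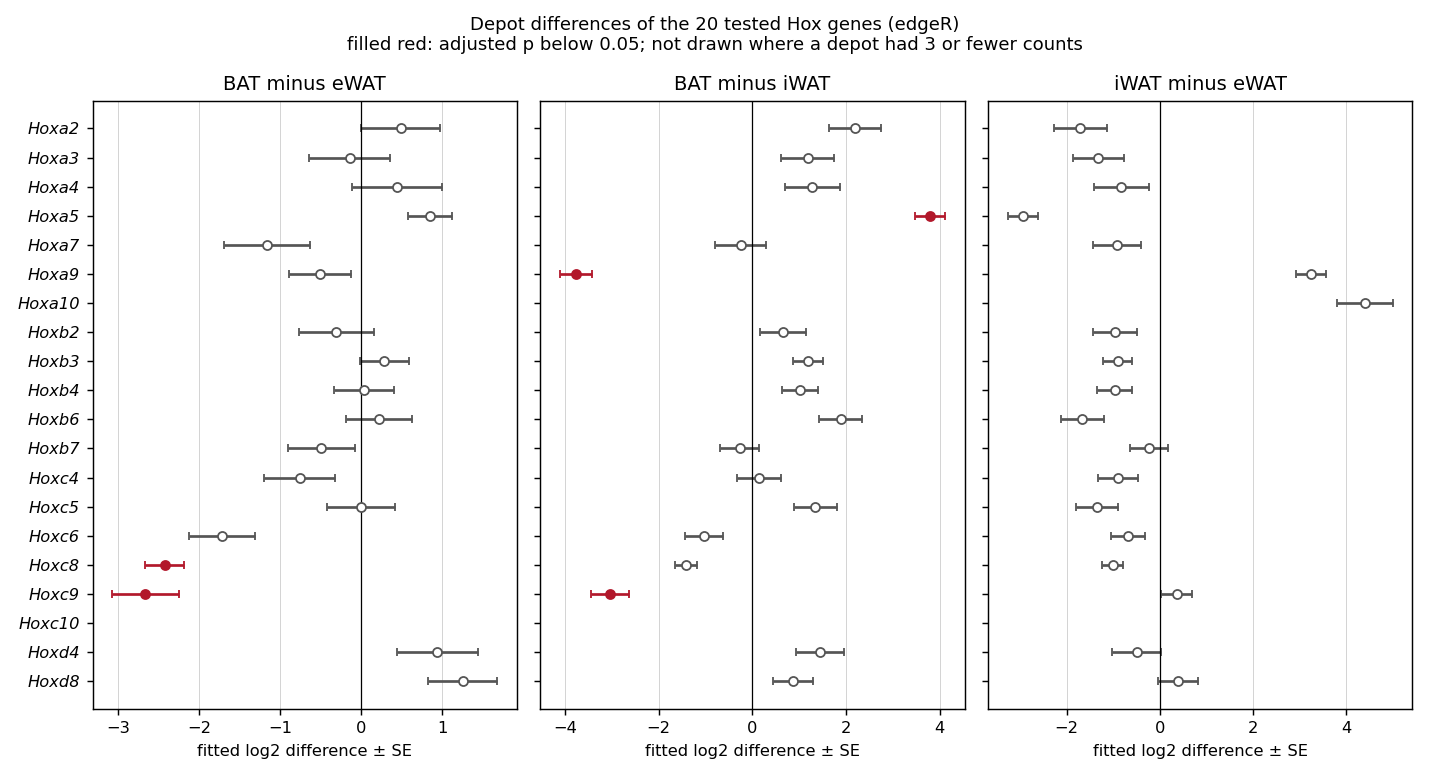
Fitted log2 difference with SE (x axes, scaled separately) of the tested Hox genes (y axis, in cluster order) for BAT minus eWAT, BAT minus iWAT and iWAT minus eWAT; filled red points have an edgeR adjusted p below 0.05, and genes with 3 or fewer counts in either depot are not drawn. Hoxa5 and Hoxa9 lie on opposite sides of 0 in both comparisons with iWAT, at 3.79 and -3.76 for BAT minus iWAT.

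The 3 comparisons share libraries pairwise, so their counts are not independent of each other. In the authors' deposited table, at an adjusted p below 0.05, BAT minus iWAT had 9 Hox genes higher and 6 lower (2.91% and 5.33% of all rows). BAT minus eWAT had 2 higher (Hoxa5 and Hoxd8) and 4 lower (Hoxa7, Hoxc6, Hoxc8 and Hoxc9) in the authors' deposited table, where 6.58% and 9.05% of all rows passed. For iWAT minus eWAT the authors' deposited table had 4 higher and 8 lower (3.25% and 5.27% of all rows). It also called Hoxc11 and Hoxb5, which the low-count filter left out here.

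Markers of other cells moved with the depots. Of 11 macrophage markers, 6 were called lower in BAT than in eWAT, and their sum was 437.2 and 94.8 CPM in BAT, 649.8 and 189.1 CPM in iWAT, and 4777 and 2107 CPM in eWAT, with none at 0 in a whole depot. Of 8 preadipocyte and fibroblast markers, 4 were called lower and 1 higher in BAT against eWAT, and 3 lower in BAT against iWAT. Their sum was 956.8 and 637.8 CPM in BAT, 5551 and 4169 CPM in iWAT, and 4417 and 3705 CPM in eWAT. Mesothelial markers summed to 13.5 and 17.2 CPM in BAT, 31.5 and 13.6 CPM in iWAT, and 38.4 and 58.9 CPM in eWAT, and Msln, Upk3b, Upk1b and Gpm6a were at 0 in iWAT. Of 4 tested mesothelial markers, 1 was called, Wt1, which had 1.69 and 0.382 CPM in BAT, 16.4 and 7.04 CPM in iWAT, and 28.4 and 29.6 CPM in eWAT (lower in BAT than in eWAT, edgeR adjusted p = 0.0229). Krt19 ran the other way, with 7.40 and 5.35 CPM in BAT, 12.99 and 4.02 CPM in iWAT, and 0.932 and 2.84 CPM in eWAT, and was not called (adjusted p = 0.206 for BAT minus eWAT). Endothelial markers summed to 191.9 and 93.3 CPM in BAT, 156.8 and 175.0 CPM in iWAT, and 51.7 and 114.3 CPM in eWAT, with 0 of 6 called. Schwann cell markers summed to 24.3 and 46.3 CPM in BAT, 8.90 and 15.3 CPM in iWAT, and 2.33 and 3.41 CPM in eWAT. Lymphocyte markers summed to at most 1.63 CPM, epithelial markers to at most 9.10 CPM and muscle markers to at most 18.9 CPM in any library. The part of these cells in the Hox differences was not tested. In bulk RNA, fewer cells of a type and less RNA per cell cannot be told apart.

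Of 38 listed genes that act with or on the Hox clusters, 34 were tested, and for BAT minus eWAT 0 were called higher and 2 lower, for a median of -0.11. As 2.71% of all genes were called higher and 3.75% lower in that comparison, this is near the background. Meis1, a DNA-binding partner of HOX proteins, was called lower and averaged 20.1 ± 2.41 CPM in BAT, 24.3 ± 0.284 CPM in iWAT and 38.5 ± 2.70 CPM in eWAT (SD, n = 2 each; BAT minus eWAT -0.93 ± 0.20, edgeR adjusted p = 0.0499). None of the 34 was called in either comparison with iWAT, with medians of -0.14 in BAT minus iWAT and 0.00 in iWAT minus eWAT. Cdx4, of the caudal family that activates posterior Hox genes in embryos, had no count in any depot.

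No other row of the table lay inside the spans of the 4 clusters, so antisense and microRNA genes there were not analysed here. Strand handling is not given in the sources used here, and without it reads of a gene and of an antisense partner cannot be told apart. Of the 24 nearest rows outside (3 on each side of a cluster), 2 were called, both higher in BAT than in eWAT. In that comparison 2.71% of all tested genes were called higher. Of the 24 rows, Evx1, Evx2, Calcoco2, Ttll6, Skap1, Atp5g2, Hnrnpa1 and Hnrnpa3 had too few counts to be tested. That share of all tested genes therefore stands beside the remaining rows only. Mtx2, a mitochondrial import gene beside Hoxd, had 244.9 and 269.2 CPM in BAT, 140.0 and 140.5 CPM in iWAT, and 123.0 and 124.3 CPM in eWAT (BAT minus eWAT 1.06, adjusted p = 0.0257). Snx10, an endosomal sorting gene on the Hoxa side, had 515.2 and 517.3 CPM in BAT, 403.9 and 394.9 CPM in iWAT, and 283.3 and 302.1 CPM in eWAT (0.82, adjusted p = 0.0417). Mtx2 lay 60.7 kb from Hoxd, and Snx10 lay 564.7 kb from Hoxa. Skap2, the closest tested row to Hoxa, had 57.5 and 54.7 CPM in BAT, 33.7 and 34.9 CPM in iWAT, and 62.0 and 46.9 CPM in eWAT, low in iWAT as Hoxa5 was, and was not called (adjusted p from 0.165 to 0.919).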

How the data were processed

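Per the labels, TRIzol-extracted total RNA was cleared of ribosomal RNA with Ribo-Zero before TruSeq library preparation. Per the submitters' processing notes, STAR and mm9 were used; no counting program is named. The deposited count table holds raw whole-number read counts, and the authors' deposited table holds log2 fold changes and adjusted p-values for each pair of depots, used here only for comparison; its likelihood ratio score, as deposited by the authors, was not used. CPM was computed with TMM factors over the tested genes. The test was edgeR 4.0.16 glmQLFTest (R 4.3.3), two-sided, fitted to all 6 libraries together with only depot as a term, after filterByExpr, with Benjamini-Hochberg adjustment over 11732 genes, called below 0.05. Residual degrees of freedom were 3, and the common biological coefficient of variation was 0.251. Standard errors are the absolute log2 difference over the square root of F. Folds with 3 or fewer counts in a depot were taken from pooled counts, and their intervals and bounds cover counting error only. Alternatives used DESeq2 1.42.0, limma 3.58.1, other filters, a replicate block and fits without 1 library. Deviations of same-numbered libraries correlated across genes at r = 0.447 (BAT and iWAT), 0.411 (BAT and eWAT) and 0.555 (iWAT and eWAT), which hints, from the data and not the labels, that the numbers pair the samples. As the labels state no pairing, the counts given first come from the fit without the block. The Hox genes whose call the block changed are named with each comparison. Scripts were tested on simulated data. Some genes that entered these fits and sums are not reported here by name. The members, gene lists and markers were chosen with earlier results of these data known. Values per library and differences were given for members with at least 10 counts that passed a test by edgeR or DESeq2 and for the member of each cluster with the highest mean CPM; Hoxa2, Hoxb6, Hoxc5, Hoxd4, Hoxb5 and Hoxc11 were added after their values were seen.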

Additional observations from a re-analysis of the deposited data

How the results depend on the processing

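The counts of Hox genes called changed with the fit, as did those of all genes. With no low-count filter, 4 were called for BAT minus eWAT and 5 for iWAT minus eWAT (1937 and 557 of 17699 genes in all). With the replicate block, which pairs same-numbered libraries, 5 were called for BAT minus eWAT, 8 for BAT against iWAT and 5 for iWAT minus eWAT (2780, 1225 and 563 genes in all). Using only the 2 depots compared gave 1 for BAT minus eWAT (156 genes in all), limma voom gave 3 for BAT minus iWAT (69 in all), and DESeq2 gave 4 for iWAT minus eWAT (301 in all). The block gave a call to Hoxa5 for BAT minus eWAT and to Hoxc8 in both comparisons with iWAT. Leaving out 1 library gave 0 to 1 for BAT minus eWAT, 0 to 4 against iWAT, 0 to 0 for iWAT minus eWAT and 0 to 5 for any depot difference, where all genes gave 17 to 829, 0 to 94, 0 to 3 and 0 to 323; a depot then had a lone library, assumed to vary like the others. The low-count ratios of Hoxa10 and Hoxc10 moved by over 1.5 times with single libraries, as given with each. Near-zero differences changed sign: Hoxb4 for BAT minus eWAT was -0.10 without BAT replicate 2 and -0.25 without eWAT replicate 1 (0.40 at the highest, without eWAT replicate 2), and Hoxd8 for iWAT minus eWAT was -0.05 without eWAT replicate 1 and -0.17 without iWAT replicate 2 (0.99 at the highest, without eWAT replicate 2). No called Hox gene changed direction in any alternative run. The cause of these shifts was not tested. Depth limits the low members: 19 of 39 could not be tested, and a count of 0 allows up to 0.634 to 1.15 CPM per library.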
